A study of Mus musculus with 33 samples.

Results

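Gene expression was compared between mouse embryoid bodies exposed to a high and a low dose of activin A, in 4 SMART-seq libraries of the 33 libraries in the study. The libraries were chosen by their labels: activin A at 100 ng/mL (AA100, 2 libraries) and at 3 ng/mL (AA3, 2 libraries), each made by the SMART-seq protocol from 50 pg of mRNA. In both groups embryonic stem cells were differentiated in serum-free culture; the embryoid bodies they formed, aggregates in which several early cell types arise together, were dispersed on day 2, received activin A from then on and were harvested on day 4. The labels used here give no genotype or cell line, and both groups received activin, so the low dose is the baseline here and not an untreated state. SMART-seq copies full-length cDNA and amplifies it, here with 13 cycles, so that very small amounts of mRNA can be sequenced. The same doses were also measured by DP-seq, which amplifies cDNA with defined heptamer primers, from 50 pg (2 AA100 libraries, 1 AA3 library), and by standard RNA-seq from 20 ng (1 AA100 library, 2 AA3 libraries).

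Activin A binds type II and type I activin receptors, which phosphorylate Smad2 and Smad3. These enter the nucleus with Smad4 and act on genes together with partners such as Foxh1. Nodal, the related ligand of the early embryo, uses the same receptors with the co-receptor Tdgf1 (Cripto), and the pathway switches on its own secreted inhibitors, among them Lefty1 and Cer1. In the gastrulating mouse embryo, strong signalling goes with anterior streak and endoderm fates, and weaker signalling with more posterior and mesodermal ones.

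The 2 AA100 libraries held 25897343 and 28350009 counts and the 2 AA3 libraries 28454626 and 30609013 counts, with 13185 to 13556 genes detected in each. Of 11453 genes tested, 155 (1.35%) were called at an adjusted p under 0.05 (edgeR quasi-likelihood test, Benjamini-Hochberg adjusted over all genes tested). Of these, 90 (0.786%) were higher and 65 (0.568%) lower in AA100. Of the 90 rises 62 were at least 2-fold and 14 at least 4-fold, with a median log2 change of 1.21 and a highest of 4.32. Among the falls 18 of 65 were at least 2-fold and 9 at least 4-fold, with a median of −0.59. Among called genes, the largest fitted changes were falls with few counts in AA100. The median over all genes tested was 0.01. The labels call the libraries of a dose technical replicates, so n = 2 is 1 sample measured 2 times and each p sets the difference between doses against technical spread only. In bulk libraries, fewer cells of a type and less RNA per cell cannot be told apart.

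**Figure D1:**
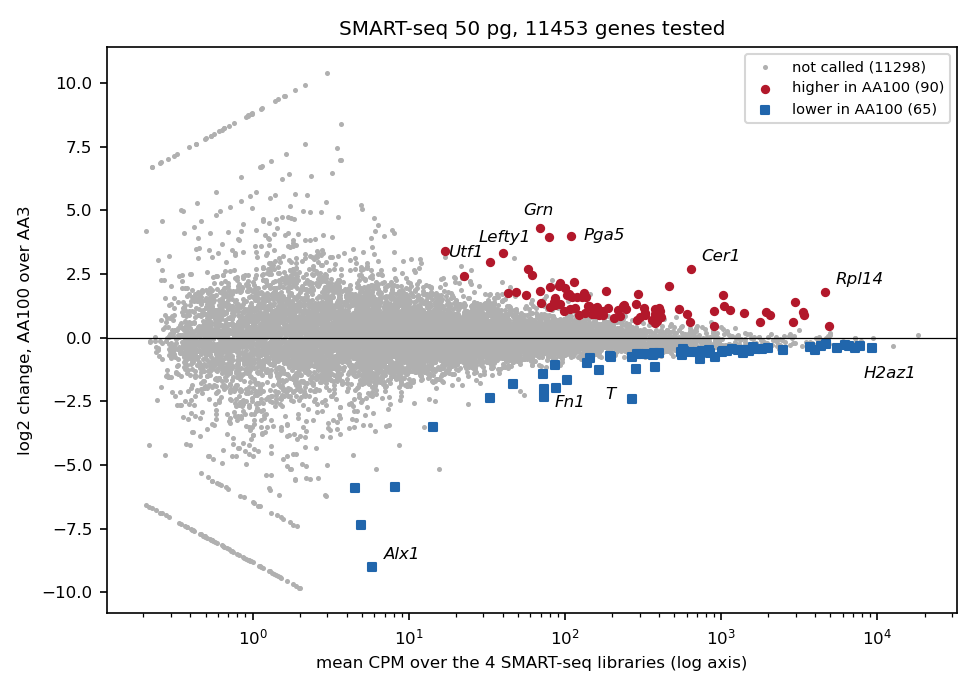
Log2 change of AA100 over AA3 (vertical axis) against the mean CPM over the 4 SMART-seq libraries (horizontal log axis), 1 point for each of the 11453 genes tested. Red circles are the 90 genes called higher and blue squares the 65 called lower in AA100; most called falls lie close to 0 at high level, but the 4 called genes under 10 CPM are also falls and lie farthest from 0. The lines of grey points at low level are genes with few or no counts in one group.

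Calls were concentrated among abundant genes. Levels are given as CPM, counts scaled to a common library size by the TMM method. Of 155 genes with a mean of 1000 CPM or more, 37 (23.9%) were called, 13 higher and 24 lower. Between 100 and 1000 CPM it was 83 of 1337 genes (6.21%), between 10 and 100 CPM 31 of 4435 (0.699%), between 1 and 10 CPM 4 of 4245 (0.0942%), and under 1 CPM 0 of 1281, in edgeR. The spread between replicates ran the other way. At 1000 CPM and over, the median absolute log2 ratio between replicates was 0.07 in AA100 and 0.05 in AA3, and the median absolute change between doses was 0.27. Between 1 and 10 CPM these were 0.81, 0.78 and 0.71. The replicate values compare 1 library with 1, while the dose value is a fitted change of 2 libraries over 2, which spread alone moves less. These values are therefore not on an equal scale. With replicates this far apart, a change of a gene under 10 CPM was seldom detectable, and a gene that was not called is not shown to be stable. Leaving out a library left few calls: 12 without AA100 library 1, 11 without AA100 library 2, and 18 without AA3 library 1 or AA3 library 2. The 155 genes all kept their direction in these fits. Those called in all 4 were rises, among them Cer1, Pga5, Car4, Rpl14, Eif1, Actg1, Car2, Mdh2 and Trh, apart from a fall. That fall was in a transcript without a gene symbol, with 87.5 and 81.5 CPM in AA100 against 484 and 412 CPM in AA3. Its log2 change was −2.41, and −4.17 in standard RNA-seq and −2.60 in DP-seq. No fall of a gene with a symbol was called in all 4.

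**Figure D2:**
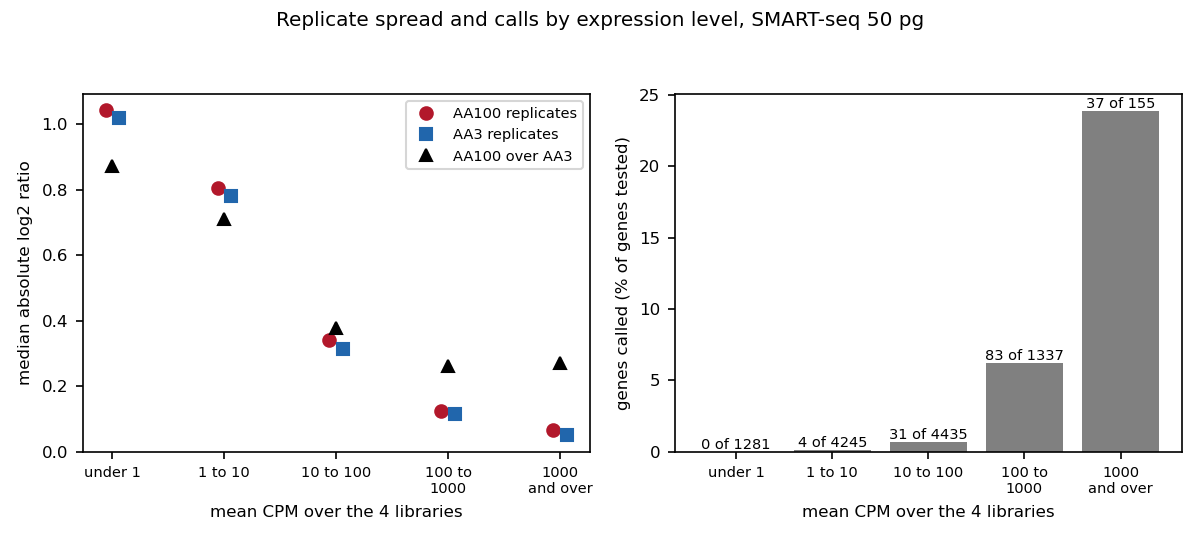
Left, the median absolute log2 ratio between the 2 AA100 libraries (circles), between the 2 AA3 libraries (squares) and between the doses (triangles), in 5 ranges of mean CPM; right, the share of tested genes called in each range, with the numbers above the bars. Under 10 CPM the replicate ratios lie above the change between doses, but they compare 1 library with 1 and the dose change compares 2 with 2. The share called climbs to 23.9% at 1000 CPM and over.

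Of the pathway's secreted inhibitors, Cer1 and Lefty1 were called higher. Cer1, which encodes an antagonist of Nodal and BMP made by anterior endoderm, had 1076 and 1142 CPM in AA100, against 161 and 179 CPM in AA3. The libraries of each dose lay close together and the doses were far apart, with a log2 change of 2.70 ± 0.08 (SE; adjusted p = 0.00115, edgeR quasi-likelihood test). Lefty1, a TGF-β family member that blocks Nodal and its co-receptor, had 143 and 155 CPM in AA100, against 12.2 and 7.20 CPM in AA3 (log2 change 3.94 ± 0.30, edgeR adjusted p = 0.0137). It too did not overlap between the doses, which over all genes tested held for 24.3% with AA100 above and 25.1% with AA100 below. Of the 14 inhibitors listed, 10 were tested, these 2 were called higher and none lower, and the median log2 change was 0.72. Pmepa1, which holds Smads away from the receptor, had 16.4 and 17.5 CPM in AA100, against 4.09 and 5.52 CPM in AA3, and was not called (edgeR adjusted p = 0.112). Smad7, the inhibitory Smad, had 7.53 and 5.02 CPM in AA100 against 1.16 and 1.55 CPM in AA3 and was not called either (edgeR adjusted p = 0.211). Fst, which encodes the activin-binding protein follistatin, lay on the other side with 27.7 and 25.4 CPM in AA100 against 57.1 and 63.0 CPM in AA3, short of the threshold (edgeR adjusted p = 0.0686). Cer1 was called without any 1 of the libraries (edgeR adjusted p 0.00811 to 0.0140), Lefty1 in 2 of the 4 such fits (0.0148 to 0.0858).

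**Figure D3:**
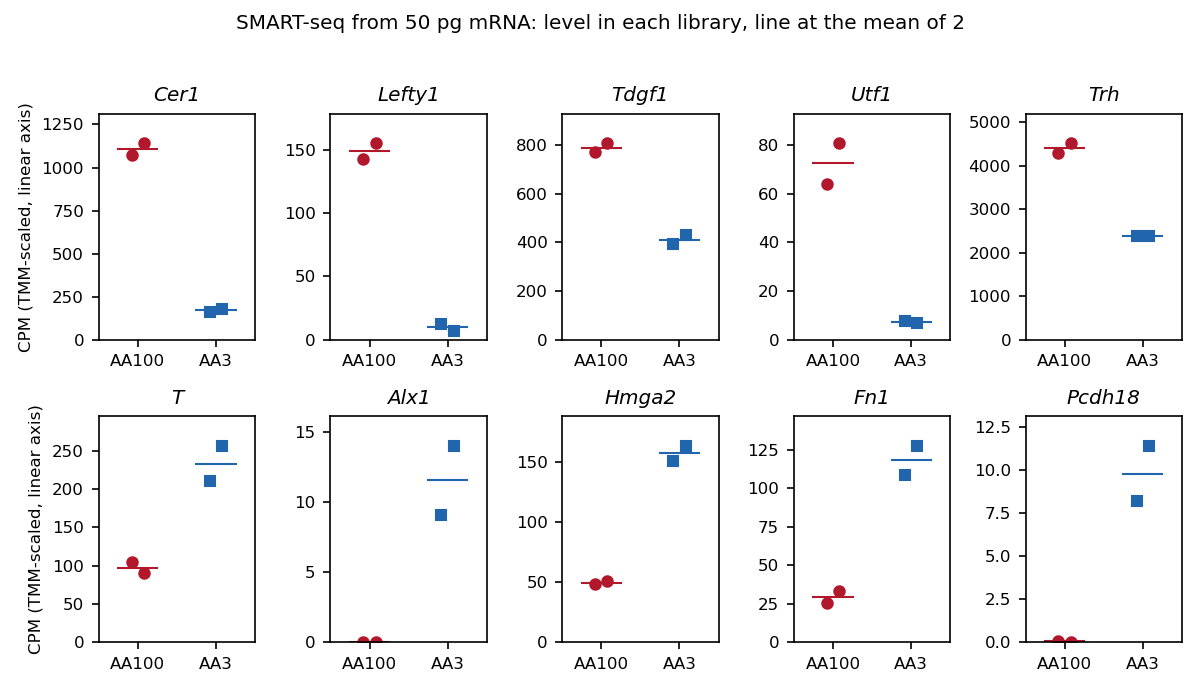
CPM of 10 genes in each SMART-seq library (linear vertical axes from 0, a different scale for each gene), AA100 as red circles and AA3 as blue squares, with a line at the mean of the 2 libraries. The upper genes (Cer1, Lefty1, Tdgf1, Utf1, Trh) are higher and the lower genes (T, Alx1, Hmga2, Fn1, Pcdh18) lower in AA100, with no overlap between the doses. All 10 were picked from the called genes, and Hmga2 and Pcdh18 by a rule that required no overlap. Over all genes tested 24.3% did not overlap with AA100 above and 25.1% with AA100 below. Alx1 and Pcdh18 lie at or near 0 in AA100.

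The co-receptor gene was also higher. Tdgf1 had 770.0 and 807 CPM in AA100, against 392 and 428 CPM in AA3 (log2 change 0.94 ± 0.08, edgeR adjusted p = 0.0144). Its doses did not overlap, but the call was lost without any 1 library (edgeR adjusted p 0.0575 to 0.0858). It was the only one called of the 9 tested among 16 ligands, convertases, co-receptors and receptors, whose median log2 change was 0.12. Cfc1 (Cryptic), the related co-receptor, had 206 and 198 CPM in AA100 against 142 and 137 CPM in AA3, and Nodal itself had 44.0 and 38.2 CPM in AA100 against 27.9 and 15.6 CPM in AA3. Neither was called (edgeR adjusted p = 0.0814 and 0.268), though in both genes the doses did not overlap. None of the 9 tested Smads and partners was called, with a median log2 change of −0.05. The transducer Smad2 had 35.0 and 36.0 CPM in AA100, against 41.2 and 39.3 CPM in AA3. The largest change in that list was in the repressor Tgif1, with 20.4 and 24.1 CPM in AA100 against 9.19 and 7.73 CPM in AA3 (edgeR adjusted p = 0.131), followed by Foxh1, which overlaps Kifc2 in the annotation, with 112 and 83.4 CPM in AA100 against 61.5 and 64.9 CPM in AA3 (edgeR adjusted p = 0.186).

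The upstream sequences of Cer1 and Tdgf1 are shown because both genes were called higher in all 3 methods and both have an entry in the RefSeq table of promoters (build GRCm38.p6). Each line gives the 250 bases before the annotated start, at chr4:82885152-82885401 on the minus strand for Cer1 and at chr9:110946159-110946408 on the minus strand for Tdgf1. Capitals mark matches, on either strand, to AATNNACA, a loose pattern for Foxh1 sites in which N is any base, and to CAGAC, the core recognised by Smads. The motifs do not overlap in these windows.
Cer1: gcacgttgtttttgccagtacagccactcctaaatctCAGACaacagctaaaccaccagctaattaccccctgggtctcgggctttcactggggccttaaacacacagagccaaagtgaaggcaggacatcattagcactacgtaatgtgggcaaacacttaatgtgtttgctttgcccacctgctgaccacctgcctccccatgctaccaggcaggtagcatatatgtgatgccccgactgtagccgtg
Tdgf1: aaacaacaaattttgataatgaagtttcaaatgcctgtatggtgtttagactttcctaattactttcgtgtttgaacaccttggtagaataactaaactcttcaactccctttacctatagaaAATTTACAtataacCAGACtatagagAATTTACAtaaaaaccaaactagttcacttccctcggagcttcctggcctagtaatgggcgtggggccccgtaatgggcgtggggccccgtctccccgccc
The Cer1 window held 1 CAGAC, and the Tdgf1 window 2 AATNNACA with 1 CAGAC between them. Both AATNNACA matches read AATTTACA, and whether Foxh1 binds that form was not tested. Among 32817 windows of the same length in the table, 10.9% held an AATNNACA and 42.2% a CAGAC, so a match is a description of the sequence and not a mapped site.

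Among streak genes T alone was called. T (Brachyury), the T-box factor of the primitive streak and early mesoderm, had 105 and 90.3 CPM in AA100, against 210.0 and 256 CPM in AA3 (log2 change −1.26 ± 0.15, edgeR adjusted p = 0.0320). The doses did not overlap, and the call was lost without any 1 library (edgeR adjusted p 0.0915 to 0.141). T overlaps a gene model without a name in the annotation. T was the only one called of 13 tested among 20 streak genes, with a median log2 change of −0.22. Lhx1, a LIM homeobox gene of the anterior streak, had 33.5 and 24.4 CPM in AA100 against 12.6 and 13.2 CPM in AA3 (edgeR adjusted p = 0.149). Mixl1, a homeobox gene of the whole streak, had 74.8 and 101 CPM in AA100 against 75.01 and 61.9 CPM in AA3, where 1 library of each dose had nearly the same level (edgeR adjusted p = 0.482). Mesp1, a factor of early migrating mesoderm, had 0.226 and 0.557 CPM in AA100 against 3.29 and 8.46 CPM in AA3 (edgeR adjusted p = 0.148), and Cdx2, a posterior homeobox gene, had 0 counts in both AA100 libraries against 1.16 and 1.42 CPM in AA3 (edgeR adjusted p = 0.126).

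Of 22 tested genes of definitive and anterior endoderm, 2 were called higher and none lower, and the median log2 change was 0.11. Trh, which encodes the precursor of thyrotropin-releasing hormone, had 4307 and 4526 CPM in AA100, against 2382 and 2379 CPM in AA3 (log2 change 0.89 ± 0.04, edgeR adjusted p = 0.00384). Its replicates were nearly equal and the doses apart, and it stayed called without any 1 library (edgeR adjusted p 0.0237 to 0.0388). Cldn6, an epithelial tight junction gene also listed for primed epiblast, had 460.4 and 433 CPM in AA100 against 302 and 301 CPM in AA3 (log2 change 0.57 ± 0.08, edgeR adjusted p = 0.0403). That call was lost without any 1 library (edgeR adjusted p 0.126 to 0.198) and with a GC-dependent offset (0.0774). Otx2, a homeobox gene of anterior tissues, had 110.5 and 110.9 CPM in AA100 against 78.4 and 58.2 CPM in AA3, apart between the doses but not called (edgeR adjusted p = 0.148). Hhex, an anterior endoderm homeobox gene, had 23.2 and 34.4 CPM in AA100 against 13.9 and 11.4 CPM in AA3 (edgeR adjusted p = 0.169). Sox17 had 16.1 and 28.5 CPM in AA100 against 17.8 and 26.8 CPM in AA3, overlapping between the doses. Sfrp5, a secreted Wnt antagonist, had 16.3 and 6.58 CPM in AA100 against 1.23 and 0.033 CPM in AA3, apart between doses but also uneven within each (edgeR adjusted p = 0.238).

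None of the 8 tested visceral endoderm genes and none of the 13 tested Wnt antagonists was called, with medians of 0.16 and −0.02. The apolipoprotein genes of the first list went opposite ways: Apoa1 had 10.2 and 16.0 CPM in AA100 against 0.398 and 1.22 CPM in AA3 (edgeR adjusted p = 0.0879), and Apoe had 17.2 and 20.7 CPM in AA100 against 130.0 and 51.8 CPM in AA3 (edgeR adjusted p = 0.0971). Kremen1, a Dickkopf receptor, had 10.1 and 1.39 CPM in AA100 against 0.145 and 0.132 CPM in AA3 (edgeR adjusted p = 0.139). Apcdd1, a membrane inhibitor of Wnt, had 0.038 and 0.104 CPM in AA100 against 2.71 and 0.925 CPM in AA3 (edgeR adjusted p = 0.187).

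The 11 tested genes of paraxial and head mesenchyme were all lower in AA100, though mostly at levels where single genes were not called. Alx1, a homeobox factor of head mesenchyme, had 0 and 1 counts in AA100 (0 and 0.0348 CPM), against 9.12 and 14.0 CPM in AA3. Over the libraries of each dose that is 1 count in AA100 against 677 in AA3, a ratio of AA3 over AA100 of 646 with an exact 95% counting interval of 116 to 25560 (edgeR adjusted p = 0.0320). The call was lost without any 1 library (edgeR adjusted p 0.0985 to 0.159) and in the joint fit of 10 libraries (0.0759). In standard RNA-seq Alx1 had 2.05 CPM in AA100 against 9.90 and 10.6 CPM in AA3 (log2 change −2.33), and in DP-seq 0 and 5.63 CPM in AA100 against 6.69 CPM in AA3, and neither method called it. Alx1 overlaps a gene model without a name in the annotation. Of 25 genes listed, 11 were tested, all 11 were below 0, 1 was called, and the median log2 change was −1.50, beside 5676 of 11453 genes below 0 and a median of 0.01 over all. A gene could pass the filter through AA3 alone, as Alx1 did, and its change then had to lie below 0. The count of 11 is therefore a description of the tested members and not a test of the list. The summed level of all 25 listed genes was 13.1 and 12.3 CPM in AA100 against 47.2 and 59.3 CPM in AA3. Foxc1, a forkhead gene of paraxial mesoderm, had 0.377 and 0.313 CPM in AA100 against 7.42 and 9.52 CPM in AA3 (edgeR adjusted p = 0.0571). Twist1, a bHLH factor of head mesenchyme, had 0.791 and 1.57 CPM in AA100 against 8.97 and 6.24 CPM in AA3, and Dll1, a Notch ligand of presomitic mesoderm, had 1.39 and 2.23 CPM in AA100 against 5.28 and 7.17 CPM in AA3. Neither was called (edgeR adjusted p = 0.151 and 0.285). The other methods gave list medians on the same side, −1.61 in standard RNA-seq and −1.23 in DP-seq.

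None of 7 tested genes of lateral, cardiac and blood mesoderm was called. Kdr, the VEGF receptor of blood and vessel precursors, had 1 count in AA100 against 67 in AA3 (ratio of AA3 over AA100 63.95, exact 95% counting interval 11.1 to 2563; edgeR adjusted p = 0.158). Isl1, a LIM homeobox gene of cardiac progenitors, had 0 and 2.37 CPM in AA100 against 10.9 and 15.4 CPM in AA3 (edgeR adjusted p = 0.379).

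Of 15 listed genes of the retinoic acid pathway 7 were tested, and 6 of them were below 0. Crabp1, which encodes a cytoplasmic carrier of retinoic acid, had 25.4 and 13.3 CPM in AA100 against 87.6 and 79.1 CPM in AA3 (edgeR adjusted p = 0.0651). Cyp26a1, which encodes a degrading enzyme, had 54.2 and 66.1 CPM in AA100 against 138 and 113 CPM in AA3 (edgeR adjusted p = 0.0688). The related carrier gene Crabp2 had 16.5 and 9.26 CPM in AA100 against 50.04 and 38.6 CPM in AA3 (edgeR adjusted p = 0.102). None of these 3 was called, and in each the doses did not overlap.

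**Figure D4:**
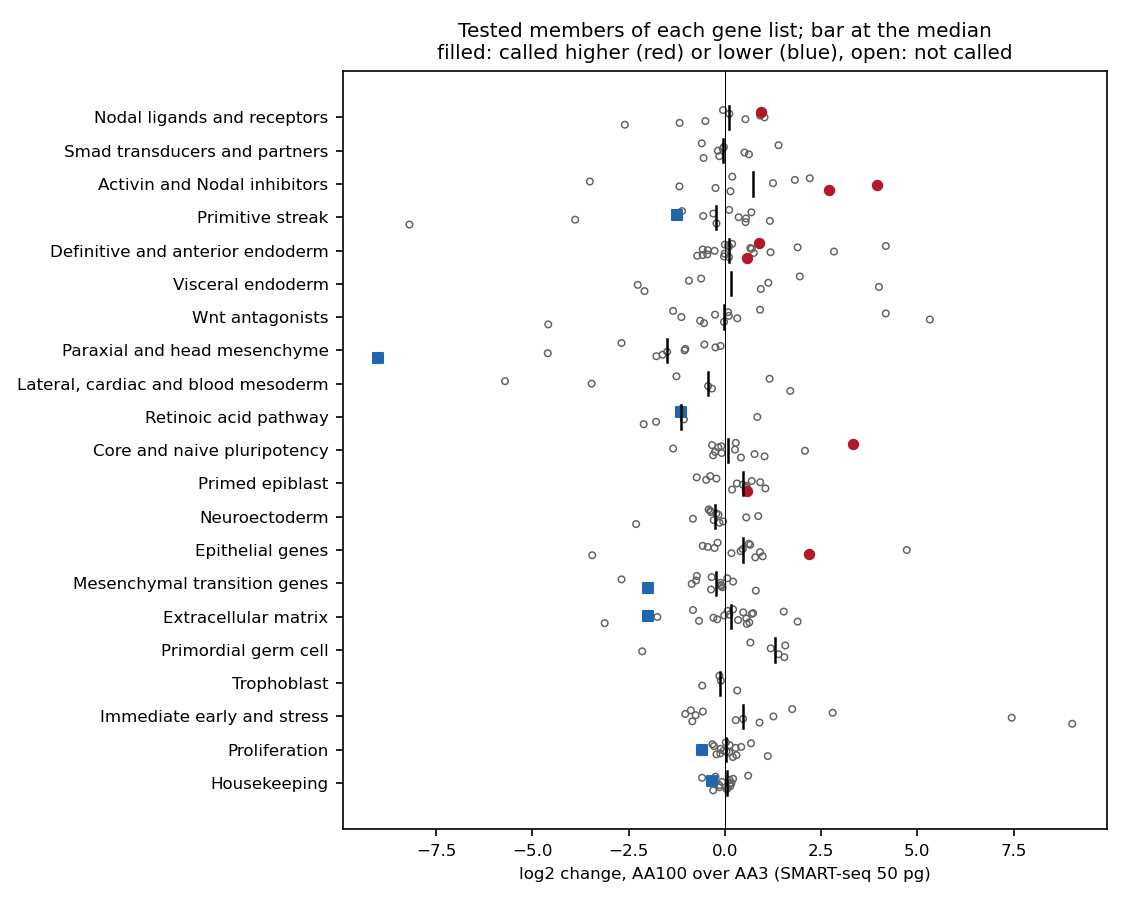
Log2 change of AA100 over AA3 in SMART-seq (horizontal axis) for the tested members of each of 21 gene lists (rows), with a bar at each list's median. Filled red circles were called higher and filled blue squares lower in AA100, and open circles were not called. All 11 tested genes of paraxial and head mesenchyme lie below 0, though Alx1 passed the filter through AA3 alone. Most other lists lie on both sides of 0.

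Among genes of pluripotent cells, Utf1 was called and the core factors were not. Utf1, a chromatin-bound factor of pluripotent cells, had 64.0 and 80.8 CPM in AA100, against 7.67 and 6.74 CPM in AA3 (log2 change 3.33 ± 0.26, edgeR adjusted p = 0.0137). The doses did not overlap, and the call was lost without any 1 library (edgeR adjusted p 0.0648 to 0.0858). It was 1 of 14 tested, and the list's median was 0.09. Nanog, a homeobox factor of pluripotency, had 20.6 and 21.1 CPM in AA100 against 5.03 and 4.82 CPM in AA3, even within each dose but short of the threshold (edgeR adjusted p = 0.0680). Pou5f1 (Oct4) had 269.5 and 286 CPM in AA100 against 237 and 226 CPM in AA3, and Sox2 had 7.98 and 22.1 CPM in AA100 against 18.2 and 15.7 CPM in AA3, overlapping between doses. Of 13 primed epiblast genes, all tested, Cldn6 alone was called, and the median was 0.47. Fgf5, the growth factor gene that marks this state, had 124 and 127 CPM in AA100 against 86.3 and 86.9 CPM in AA3 (edgeR adjusted p = 0.114). None of 12 tested neuroectoderm genes was called (median −0.25), and 6 of the 30 listed, Pax6 among them, had 0 counts in all 4 libraries. Foxd4, a forkhead gene, had 0.264 and 0.627 CPM in AA100 against 1.66 and 2.78 CPM in AA3, and Six6, an eye field homeobox gene, was seen in 1 library of each dose, with 2.18 CPM in AA100 and 1.19 CPM in AA3 (edgeR adjusted p = 0.392 and 0.930).

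Epithelial and mesenchymal genes each had 1 call. Cldn7, a tight junction gene, had 144 and 228 CPM in AA100, against 46.5 and 34.9 CPM in AA3 (log2 change 2.19 ± 0.28, edgeR adjusted p = 0.0371). The AA100 libraries were uneven but both above both AA3 libraries, and the call was lost without any 1 library (edgeR adjusted p 0.0688 to 0.147). In DP-seq Cldn7 had 20.5 and 14.3 CPM in AA100 against 19.7 CPM in AA3 (log2 change −0.17), and in standard RNA-seq its log2 change was 0.84. Neither method called Cldn7, and its differences from SMART-seq were not called. The epithelial list's median in SMART-seq was 0.47 over 15 tested genes. Cdh1 (E-cadherin) had 204 and 157 CPM in AA100 against 102 and 107 CPM in AA3 (edgeR adjusted p = 0.0928), and Epcam had 183 and 144 CPM in AA100 against 85.6 and 88.2 CPM in AA3 (edgeR adjusted p = 0.0686). Fn1, which encodes the matrix protein fibronectin, had 25.5 and 33.3 CPM in AA100, against 109 and 127 CPM in AA3 (log2 change −2.01 ± 0.21, edgeR adjusted p = 0.0268). It was the one call among 14 tested mesenchymal transition genes (median −0.23) and among 20 tested matrix genes (median 0.16), and it too was lost without any 1 library (edgeR adjusted p 0.0858 to 0.138). Vim had 120 and 117 CPM in AA100 against 132 and 94.7 CPM in AA3, overlapping between doses.

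Markers of other cells gave no calls. Of 11 primordial germ cell genes 6 were tested, with a median of 1.29. The summed level of all 11 was 94.2 and 77.3 CPM in AA100 against 49.2 and 52.6 CPM in AA3. Ifitm3, also made by many other cells, had 64.3 and 58.8 of those CPM in AA100 against 25.4 and 28.5 CPM in AA3 (edgeR adjusted p = 0.0669), while Tfap2c, a defining factor, was at 0 in all 4 libraries. The related Ifitm1 lay on the other side, with 2.75 and 3.76 CPM in AA100 against 14.0 and 14.9 CPM in AA3, and Nanos3, a germ cell RNA-binding factor, had 17 and 25 counts in AA100 against 2 and 13 in AA3 (edgeR adjusted p = 0.101 and 0.644). Of 13 trophoblast genes 4 were tested. The summed level of all 13 was 83.7 and 89.1 CPM in AA100 against 111 and 77.5 CPM in AA3. The defining genes Elf5, Tfap2c, Prl3d1, Tpbpa and Esx1 were at 0 in all 4 libraries. Gata3, also a gene of other tissues, had 4.18 and 8.05 CPM in AA100 against 8.58 and 9.81 CPM in AA3, and Ascl2, a bHLH factor, had 3.13 and 4.28 CPM in AA100 against 2.42 and 3.50 CPM in AA3 (edgeR adjusted p = 0.686 and 0.904). None of 13 tested immediate early and stress genes was called (median 0.47). Fos had 12.5 and 1.32 CPM in AA100 against 0.072 and 0 CPM in AA3, and Atf3 130 counts in AA100 and none in AA3, at least 45.4-fold higher with a floor of 3 counts over the AA3 group (edgeR adjusted p = 0.135 and 0.138). The other methods gave Atf3 like levels at both doses, 4.19 CPM in AA100 against 3.15 and 3.07 CPM in AA3 in standard RNA-seq, and 7.49 and 8.99 CPM in AA100 against 8.57 CPM in AA3 in DP-seq.

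Proliferation and housekeeping genes had medians near 0, with 1 call in each list. Cdk1, the mitotic kinase, had 435 and 457 CPM in AA100, against 687 and 650.2 CPM in AA3 (log2 change −0.58 ± 0.07, edgeR adjusted p = 0.0320). It was the only call among 17 tested proliferation genes (median 0.04), and was lost without any 1 library (edgeR adjusted p 0.112 to 0.172) and with a GC-dependent offset (0.0526). Rpl13a, with 3737 and 3906 CPM in AA100 against 4937 and 4727 CPM in AA3 (log2 change −0.34 ± 0.04, edgeR adjusted p = 0.0405), was the only call among 15 tested housekeeping genes (median 0.05), and was lost without any 1 library (edgeR adjusted p 0.112 to 0.214). Of 95 tested ribosomal protein genes, a list added after seeing the data, 3 were called higher and 11 lower, with a median log2 change of −0.22. Over all genes tested 0.786% were called higher and 0.568% lower. At 1000 CPM and over 23.9% were called, 13 higher and 24 lower. The list's summed level was 241140 and 253930 CPM in AA100 against 283520 and 271730 CPM in AA3. Its count of calls is therefore not set apart from the high level of its genes. Rpl14 went against the rest, with 7123 and 7180 CPM in AA100 against 2056 and 2063 CPM in AA3 (log2 change 1.80 ± 0.04, edgeR adjusted p = 0.000232). Ribosomal protein genes have many near-identical copies in the genome. How reads that fit several copies were treated in the deposited unique counts is not given, and its part in such values was not tested.

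Outside the lists, the largest rise by the naming rule was in Grn, which encodes the growth factor precursor progranulin. It had 144 and 121 CPM in AA100, against 8.11 and 5.15 CPM in AA3 (log2 change 4.32 ± 0.29, edgeR adjusted p = 0.0113), and was called in 2 of 4 fits without a library (edgeR adjusted p 0.0199 to 0.0811). Pga5, a pepsinogen gene, had 198 and 213 CPM in AA100 against 11.04 and 14.4 CPM in AA3 (log2 change 4.01 ± 0.19, edgeR adjusted p = 0.00384), and Car4, a membrane carbonic anhydrase gene, had 780.4 and 715 CPM in AA100 against 183 and 185 CPM in AA3 (log2 change 2.02 ± 0.08, edgeR adjusted p = 0.00266). Both kept their call without any 1 library (edgeR adjusted p up to 0.0417 and 0.0202). Bhlhe40, a bHLH repressor, had 28.1 and 34.3 CPM in AA100 against 3.08 and 2.81 CPM in AA3, and the glycolytic enzyme gene Aldoc had 102 and 106 CPM in AA100 against 16.2 and 21.2 CPM in AA3. Further named rises were Castor1, an arginine sensor, Shmt2, a mitochondrial serine hydroxymethyltransferase, Vars, a valyl-tRNA synthetase, and Rrn3, an initiation factor of RNA polymerase I, with log2 changes from 2.15 to 2.98. In standard RNA-seq Vars had 320.2 CPM in AA100 against 347 and 361 CPM in AA3 (log2 change −0.15), and this differed from SMART-seq (difference 2.49 ± 0.26, edgeR adjusted p = 0.0121). Rrn3 had a log2 change of 0.31 there, with the difference not called (edgeR adjusted p = 0.0544). The difference between methods was also called for Grn, whose log2 change in standard RNA-seq was 1.36 (difference 2.88 ± 0.39, edgeR adjusted p = 0.0261). Without 1 SMART-seq library the difference was called in 1 of 4 fits for Vars and in none for Grn. Apart from Grn, Pga5 and Car4, these calls were lost without any 1 library, and that of Castor1 also with a GC-dependent offset (edgeR adjusted p = 0.0543). Shmt2 overlaps another coding gene in the annotation (Ndufa4l2). The differences between methods rest on a spread shared by all methods. For Vars the SE of 0.26 for the difference lies below the SE of 0.30 for the SMART-seq change in its own fit.

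Among the falls outside the lists, Pcdh18, a protocadherin gene, had 3 counts in AA100 against 571 in AA3, a ratio of AA3 over AA100 of 182 with an exact 95% counting interval of 61.9 to 884 (edgeR adjusted p = 0.0314). Foxb1, a forkhead gene, had 0.188 and 0.104 CPM in AA100 against 10.2 and 7.60 CPM in AA3 (edgeR adjusted p = 0.0449). Car3, a cytosolic carbonic anhydrase gene, had 1.81 and 2.75 CPM in AA100 against 24.9 and 27.6 CPM in AA3 (log2 change −3.52 ± 0.42, edgeR adjusted p = 0.0315). In these 3 genes the doses were far apart, though the naming rule had required that they not overlap. Hmga2, a chromatin architecture gene of embryonic cells, had 48.6 and 51.1 CPM in AA100 against 151 and 164 CPM in AA3 (log2 change −1.66 ± 0.13, edgeR adjusted p = 0.0144). Prtg, a cell surface receptor gene of the early embryo, had 42.4 and 29.2 CPM in AA100 against 119 and 160.1 CPM in AA3, and Slc16a1, a monocarboxylate transporter gene, had 187 and 157 CPM in AA100 against 372 and 429 CPM in AA3. The other named falls were Sp8, a zinc finger factor, the nuclear noncoding RNA Malat1, Yy2 and Ccnk, which encodes cyclin K. Yy2 overlaps Mbtps2 and Ccnk overlaps Setd3 in the annotation. Several of these falls were smaller, or on the other side of 0, in another method. Ccnk was called higher in standard RNA-seq, with 258 CPM in AA100 against 94.3 and 94.2 CPM in AA3 (log2 change 1.44; difference −3.91 ± 0.35, edgeR adjusted p = 0.00727), and its log2 change in DP-seq was 0.92. Yy2 had log2 changes of −0.95 in standard RNA-seq (difference −4.98 ± 0.68, edgeR adjusted p = 0.0261) and 0.62 in DP-seq. Foxb1 had −1.02 in standard RNA-seq (difference −4.95 ± 0.82, edgeR adjusted p = 0.0465) and −1.41 in DP-seq. Pcdh18 had 13.0 CPM in AA100 against 26.5 and 28.8 CPM in AA3 in standard RNA-seq (log2 change −1.10), and this difference was not called (edgeR adjusted p = 0.0932). Without 1 SMART-seq library the difference was called in 2 of 4 fits for Ccnk and in none for Yy2 or Foxb1. All 10 calls were lost without any 1 library.

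The metallothionein genes Mt1 and Mt2, which encode small metal-binding proteins and were picked after their values were seen, were both called higher. Mt1 had 1537 and 1602 CPM in AA100, against 538 and 450.4 CPM in AA3 (log2 change 1.67 ± 0.10, edgeR adjusted p = 0.00776). Mt2 had 285 and 289.5 CPM in AA100, against 75.4 and 85.3 CPM in AA3 (log2 change 1.84 ± 0.11, edgeR adjusted p = 0.00804). The doses did not overlap in either gene, and each was called in 2 of 4 fits without a library. In the joint fit of 10 libraries Mt2 was not called (edgeR adjusted p = 0.0610). Their upstream sequences are shown because the genes are neighbours that moved together. The 250 bases before each start lie at chr8:94178839-94179088 (Mt1) and chr8:94172368-94172617 (Mt2), both on the plus strand of GRCm38.p6 in the RefSeq table. Capitals mark matches on either strand to TGCACNC or TGCGCNC, the core recognised by the metal-responsive factor Mtf1.
Mt1: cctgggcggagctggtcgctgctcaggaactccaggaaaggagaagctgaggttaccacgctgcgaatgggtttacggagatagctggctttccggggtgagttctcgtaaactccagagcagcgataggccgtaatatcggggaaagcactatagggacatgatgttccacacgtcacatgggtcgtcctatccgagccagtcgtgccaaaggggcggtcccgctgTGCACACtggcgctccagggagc
Mt2: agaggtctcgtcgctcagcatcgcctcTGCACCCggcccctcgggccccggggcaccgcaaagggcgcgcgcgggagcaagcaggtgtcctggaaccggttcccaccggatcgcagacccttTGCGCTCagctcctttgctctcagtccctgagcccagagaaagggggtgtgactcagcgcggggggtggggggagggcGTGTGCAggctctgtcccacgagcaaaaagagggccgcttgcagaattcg
The Mt1 window held 1 match and the Mt2 window 3, and 21.4% of the 32817 windows held at least 1.

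The same doses measured by other methods gave values for all 155 genes, in a joint edgeR fit of 10 libraries over 14072 genes. The libraries are separate, and whether the methods shared 1 RNA preparation is not given in the sources used here. The joint fit gives each gene 1 spread for all methods. Replicates spread less in standard RNA-seq (chi-square per degree of freedom 1.315) than in SMART-seq (45.8 and 39.8) or DP-seq (34.9). The dose calls of standard RNA-seq can therefore be too few, and a gene it did not call is not shown to be stable there. Of the 90 genes called higher in SMART-seq, 81 were also above 0 in DP-seq (90.0%, against 60.8% with the same sign among 5645 genes above 0 but not called) and 76 in standard RNA-seq (84.4%, against 58.5%). Of the 65 called lower, 61 were below 0 in DP-seq (93.8%, against 54.9% of 5544 genes) and 50 in standard RNA-seq (76.9%, against 59.8%). The called genes were also more abundant than the others, with median levels of 175 CPM for the rises and 578 CPM for the falls against 10.6 CPM. DP-seq called 330 genes (2.35%) and standard RNA-seq 269 (1.91%) in that fit. Of the 90 rises, 38 were called higher in DP-seq (1.29% of all genes were) and 25 in standard RNA-seq (1.12%). Of the 65 falls, 30 were called lower in DP-seq (1.06%) and 23 in standard RNA-seq (0.796%). In all 3 methods 20 rises and 14 falls were called, among them Cer1, Lefty1, Tdgf1, Trh, Pga5, Car4, Mt1 and Bhlhe40 on the high side and Fn1, Hmga2, Prtg, Slc16a1 and Cdk4 on the low side.

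**Figure D5:**
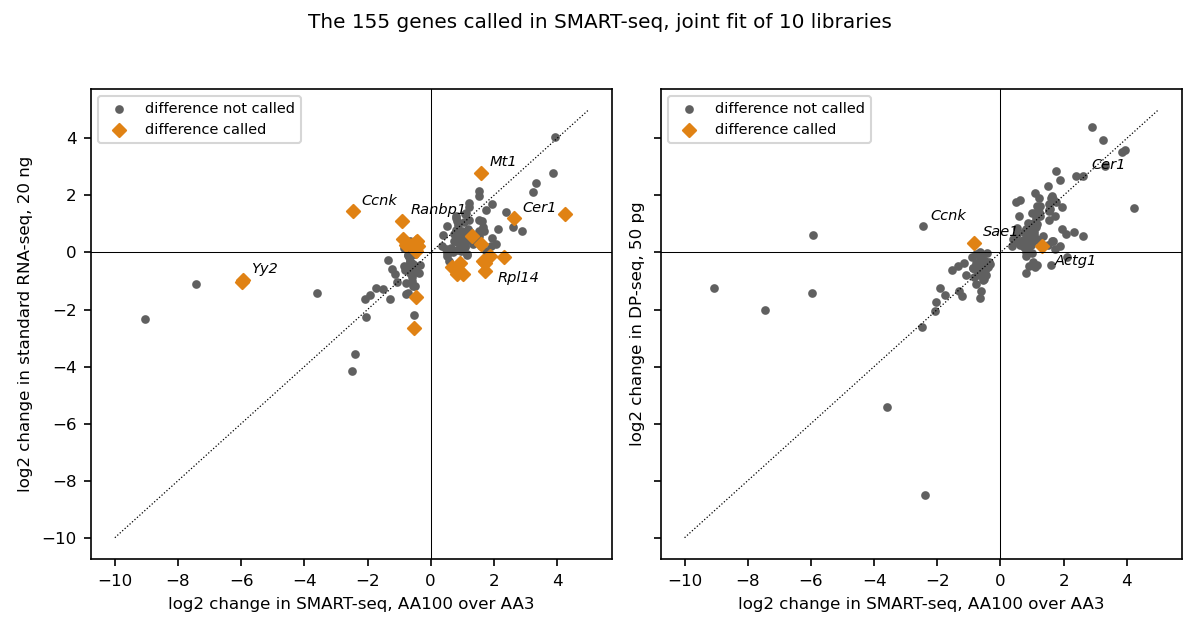
Log2 change of AA100 over AA3 for the 155 genes called in SMART-seq (horizontal axes), against standard RNA-seq from 20 ng (left) and DP-seq from 50 pg (right), all from the joint fit of 10 libraries, with a dotted line where both methods are equal. Orange diamonds are genes whose change differed between the methods by the test of the difference; there are 27 on the left, many of them on opposite sides of 0, and 2 on the right (Actg1 and Sae1).

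The change itself differed between SMART-seq and standard RNA-seq in 120 genes (0.853% of those tested; 0.249% with the SMART-seq change higher and 0.604% with it lower; interaction contrast of the joint edgeR fit). Between SMART-seq and DP-seq it differed in 3 (0.0213%; 0.00711% higher and 0.0142% lower), Actg1, Sae1 and Psmb3. Of the 155 called genes, 27 differed from standard RNA-seq, 18 of them with opposite signs. These calls rest on 1 spread per gene for all methods. SMART-seq replicates spread more than standard RNA-seq ones, so the called differences can be too many. Cer1 was higher in both, but its log2 change was 2.62 in SMART-seq against 1.21 in standard RNA-seq, where it had 559 CPM in AA100 and 242 and 239.5 CPM in AA3 (difference 1.42 ± 0.18, edgeR adjusted p = 0.0258). Without any 1 SMART-seq library that difference was no longer called (edgeR adjusted p 0.0820 to 0.110), and the count of 120 became 12 without AA100 library 1, 18 without AA100 library 2, 9 without AA3 library 1 and 8 without AA3 library 2. Cer1 in DP-seq had a log2 change of 2.69. Rpl14 was higher in SMART-seq and lower in standard RNA-seq, with log2 changes of 1.72 and −0.38 (difference 2.09 ± 0.08, edgeR adjusted p = 7.03e-05), and 1.26 in DP-seq. Ranbp1, which encodes a regulator of nuclear transport, was lower in SMART-seq and higher in standard RNA-seq, with log2 changes of −0.91 and 1.12 (difference −2.03 ± 0.15, edgeR adjusted p = 0.00343). Rpl14, Ranbp1 and Cad, a pyrimidine synthesis gene, were the 3 of the 27 whose difference was called without any 1 SMART-seq library. T, called lower in SMART-seq, had a log2 change of −0.25 in standard RNA-seq and −0.49 in DP-seq, and these differences were not called (edgeR adjusted p = 0.0737 and 0.171).

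The called genes differed in base composition. The reference transcripts of the called rises had a median GC content of 53.5% (89 of 90 genes with a value), those of the called falls 47.1% (61 of 65) and those of genes not called 50.2%. Across 11125 genes the log2 change had a Spearman correlation of 0.16 with GC content in SMART-seq, against 0.13 in standard RNA-seq and 0.24 in DP-seq, as a description over genes that share libraries. With a GC-dependent offset for each library, an alternative chosen after seeing the data, 82 of the 90 rises and 36 of the 65 falls were still called. The part of GC content in the calls beyond this was not tested.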

How the data were processed

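Per the file headers, the authors deposited unique read counts per RefSeq transcript for each library; per the labels' protocols mRNA was isolated, copied into single-stranded cDNA and, in SMART-seq, amplified with 13 cycles. The deposited tables that hold a few values that are not whole (2 in each SMART-seq library) were treated as estimated counts and rounded. Not given in the sources used here: aligner, counting rule, strand use, genome build. Reads of overlapping genes and of near-identical copies therefore cannot be told apart. Symbols came from RefSeq for 25857 of 26566 transcripts and from GENCODE for 150 more, and counts were summed to 21844 genes.

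Groups follow the labels. The 4 SMART-seq libraries (25897343 to 30609013 counts) were fitted alone with edgeR 4.0.16 in R 4.3.3: filterByExpr by group (minimum count 10, minimum total 15), TMM scaling and a robust quasi-likelihood fit, with Benjamini-Hochberg adjustment over all genes tested and a threshold of 0.05. Differences between methods are interaction contrasts of a joint fit of 10 libraries, where groups of 1 library borrow the spread of the rest. That fit gives each gene 1 spread for all methods. Replicates spread more in SMART-seq (chi-square per degree of freedom 45.8 and 39.8) than in standard RNA-seq (1.315). The errors of the differences can therefore be too small, and their calls too many. For the dose change within standard RNA-seq the errors can be too large, and the calls too few. The SMART-seq log2 changes of the joint fit differ slightly from those of the first fit because the scaling is set over 10 libraries. Values after ± are standard errors, and CPM were scaled within each method. Counting intervals and floors cover counting error only. DESeq2 1.42.0 and other alternatives are under the dependence on processing.

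The libraries, gene lists, tests and naming rule were chosen with earlier results of these data known. Named are 5 markers, per list up to 4 called members with the largest change (or up to 2 tested members where none was called), and the 10 largest called rises and falls outside the lists with at least 50 counts in both libraries of the higher group and no overlap in CPM, leaving out unnamed models, pseudogenes and ribosomal proteins. A few genes that the rule names are not reported here. Other list members are given as values and were picked after these were seen. Promoter sequences are from RefSeq (GRCm38.p6); of 8 called genes looked up, 6 had an entry. Python 3.11.15, pandas 2.3.3, scipy 1.17.1 and matplotlib 3.10.9 made tables and figures.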

Additional observations from a re-analysis of the deposited data

How the results depend on the processing

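The 155 calls kept their direction in every alternative in which they were measured (150 genes with the GC-dependent offset, all 155 otherwise), but their number did not hold. Against 90 higher and 65 lower, upper-quartile scaling gave 102 lower, DESeq2's Wald test 1193 in all (611 and 582), no filter on low counts 250 (144 and 106), at least 100 counts in 2 libraries 498 (273 and 225), and the joint fit of 10 libraries 573 (262 and 311). Leaving out 1 SMART-seq library gave 11 to 18 calls, 10 to 17 higher and 1 lower, with the lone library of a dose assumed to vary like the other group. With the technical replicate number as a replicate block it was 54 (47 and 7). The numbers do not pair the libraries: deviations of same-numbered libraries had a correlation of −0.02 over 11453 genes. DESeq2 size factors in edgeR, a fit that was not robust and the GC-dependent offset left the counts within 1.5 times. Of the 33 called genes named by the rule, the replicate block lost 18 calls, the GC-dependent offset 3, the joint fit 1, leaving out 1 library 27 to 29, and the other alternatives none. The 120 differences from standard RNA-seq became 8 to 18 without 1 SMART-seq library. The 3 differences from DP-seq became 1 with DESeq2 size factors and 0 without any 1 library in edgeR (1957 to 2195 genes at unadjusted p under 0.05). The cause was not tested. Under 10 CPM the median ratio between single replicates was above the median fitted change between doses, which rests on 2 libraries of each dose. Replicates of a dose spread far beyond counting noise, with a chi-square per degree of freedom of 45.8 in AA100 and 39.8 in AA3, against 1.315 between the standard RNA-seq AA3 libraries, which had fewer counts.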

Other observations

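Some called genes fall into metabolic groups that were picked after the calls were seen, so the counts are a description. Over all genes tested 0.786% were called higher and 0.568% lower, and in both directions together 6.21% of those between 100 and 1000 CPM and 23.9% of those at 1000 CPM and over. Of 17 tricarboxylic acid cycle genes, all tested, 4 were called higher in AA100 and none lower, and the median log2 change was 0.12. Among the 4 were the genes of citrate synthase, of a subunit of oxoglutarate dehydrogenase and of malate dehydrogenase. Mdh2 had 1494 and 1573 CPM in AA100, against 726 and 734 CPM in AA3 (log2 change 1.07 ± 0.06, edgeR quasi-likelihood adjusted p = 0.00384), and stayed called without any 1 library. Cs had 140.2 and 109 CPM in AA100 against 45.2 and 48.0 CPM in AA3, and Ogdh had 122 and 123 CPM in AA100 against 53.3 and 46.7 CPM in AA3. In standard RNA-seq the log2 changes were 0.24 for Mdh2, 0.31 for Cs and 1.13 for Ogdh.

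Of 82 tested subunits of the respiratory chain and ATP synthase, 2 were called higher (Cox4i1 and Ndufa8) and 6 lower (Atp5j2, Atp5md, Cox6c, Cox7b, Cycs and Ndufa4), with a median log2 change of −0.25. Of 11 tested carbonic anhydrase genes, Car2 and Car4 were called higher and Car3 lower. Car2 had 1432 and 1503 CPM in AA100, against 599 and 629 CPM in AA3. Of 38 tested proteasome subunits 1 was called, Psmc6, lower in AA100.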
